A study of Mus musculus with 10 samples.

Results

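The 8 genes described here have roles in muscle, namely the myogenic factors Myod1, Myog and Myf5, the inhibitory factor Msc, the T-box gene Tbx15, and Mef2a, Mef2c and Mef2d. They were selected on their expression in these same libraries, as a set of which several stood high in 1 group. They are 8 of the 16697 gene entries of the table, and all 8 were found by symbol and passed the filter on low values. Since the choice used these values, the levels and fold changes of the 8 genes are given as a description. Where the text says that one of them was or was not called, this only describes its place in the fit over all genes and supports nothing.

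RNA was measured by sequencing in mouse liver tissue, in 10 libraries of 3 groups. Normal liver (NL, n = 4) came from animals labelled WT. Liver tumours were raised in mice labelled WT by hydrodynamic tail vein injection, which drives plasmids into hepatocytes for insertion into their genome by a transposase. The first tumour group received c-MYC with the empty pT3-EF1α vector (c-MYC, n = 3). The other received c-MYC with FOXO1AAA, a form of the transcription factor FOXO1 that AKT cannot inactivate (c-MYC/FOXO1AAA, n = 3). Both transgenes were carried on vectors with the EF1α promoter, which is active in most cell types. The sample labels name the strain C57BL/6, whereas the extraction protocol names FVB livers. The paper gives FVB/N for the normal livers and for the mice injected with c-MYC and either FOXO1AAA or empty vector. The ages of the animals and the sex of each library were not given in the sources used here. Every group thus shares the WT label, and both tumour groups share c-MYC and the vector backbone.

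Myogenic regulatory factors are basic helix-loop-helix (bHLH) proteins that bind E-box sequences together with E proteins and switch on the skeletal muscle programme. Myf5 and Myod1 act in the determination of myoblasts, the precursors of muscle fibres, and Myog acts later, when myoblasts leave the cell cycle and differentiate. MEF2 proteins are MADS-box factors that work with these bHLH factors on muscle genes, and they also act in neurons, heart and lymphocytes. Msc encodes musculin, also called MyoR, a bHLH repressor of myogenic transcription, and Tbx15 encodes a T-box factor of the limb and trunk mesenchyme and of muscle fibres. Rhabdomyosarcoma is a tumour with skeletal muscle features that is diagnosed by desmin, MYOD1 and myogenin, and its alveolar form often carries a fusion of PAX3 or PAX7 with FOXO1. Hepatocytes are not known to use the myogenic factors.

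The promoter regions of the genes are shown because these genes differ in how far they moved together. RefSeq promoter sequences (250 bases before to 50 after the start site, GRCm38.p6) were matched by symbol for 5 of the 8 genes, giving 7 sequences in all. Below are those of Myog (chr1:134289754-134290053, plus strand), Myf5 (chr10:107486085-107486384, minus strand), Mef2a (chr7:67372809-67373108, minus strand) and the start of Mef2c farthest upstream (chr13:83503784-83504083, plus strand). They are written 5′ to 3′ in the direction of the gene, and capitals mark each match to the E-box or to the MEF2 motif on either strand.
Myog: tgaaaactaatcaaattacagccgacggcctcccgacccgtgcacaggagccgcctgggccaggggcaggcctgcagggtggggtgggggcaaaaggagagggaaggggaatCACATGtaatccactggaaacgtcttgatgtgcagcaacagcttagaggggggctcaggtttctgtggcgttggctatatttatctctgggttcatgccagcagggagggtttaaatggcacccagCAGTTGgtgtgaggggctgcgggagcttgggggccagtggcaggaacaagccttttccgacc
Myf5: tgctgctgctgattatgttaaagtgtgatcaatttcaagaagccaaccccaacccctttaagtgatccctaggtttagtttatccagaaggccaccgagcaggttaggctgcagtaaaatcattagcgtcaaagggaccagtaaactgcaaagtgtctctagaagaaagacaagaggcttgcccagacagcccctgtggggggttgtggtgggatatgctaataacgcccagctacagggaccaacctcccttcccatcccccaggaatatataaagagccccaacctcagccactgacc
Mef2a: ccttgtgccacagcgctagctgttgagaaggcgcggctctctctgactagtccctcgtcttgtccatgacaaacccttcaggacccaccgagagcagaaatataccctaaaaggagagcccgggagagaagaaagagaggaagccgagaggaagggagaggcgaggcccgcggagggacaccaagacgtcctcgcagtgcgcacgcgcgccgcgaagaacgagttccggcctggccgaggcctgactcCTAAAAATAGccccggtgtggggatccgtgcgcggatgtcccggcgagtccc
Mef2c: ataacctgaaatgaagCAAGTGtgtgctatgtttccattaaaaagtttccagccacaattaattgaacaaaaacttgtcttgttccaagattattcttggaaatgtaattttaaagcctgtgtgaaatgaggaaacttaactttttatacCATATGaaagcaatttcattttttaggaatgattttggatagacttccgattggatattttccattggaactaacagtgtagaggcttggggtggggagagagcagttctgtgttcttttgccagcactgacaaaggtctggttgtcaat
In all, 4 motifs were searched on both strands, namely the E-box CANNTG, the MEF2 motif, the FOXO motif GTAAACA and the T-box motif AGGTGT, the last of which overlaps an E-box where the latter reads CAGGTG and is followed by T. The MEF2 motif was searched as YTAWWWWTAR, where Y is C or T, W is A or T and R is A or G. Near matches were not counted or marked. The Myog promoter had 2 E-boxes, starting 138 and 12 bases before the start site. It also holds the stretch ctatatttat, which misses the MEF2 motif in the last base only. The Mef2c promoter shown had 2 E-boxes, starting 234 and 100 bases before it, and Mef2a had 1 MEF2 match starting 2 bases before it. The Myf5 promoter had no match to any of the 4 motifs, and neither had that of Mef2d. No FOXO motif was found in any of the 7 sequences. The Myf5 promoter holds the stretch gtaaact, which misses this motif in the last base only. Among 32544 promoters of the same length, 72.3% held an E-box, 3.16% the MEF2 motif, 3.66% the FOXO motif and 13.8% the T-box motif. These matches are a description of letters in the windows.

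Depth ranged from 13.12 to 20.55 M reads (M, mega) in listed genes per library, and no library was set aside. Foxo1, the gene of the added factor, was read at 70.1 to 95.6 FPKM (fragments scaled to transcript length and library size, a level per gene length) in the c-MYC/FOXO1AAA libraries and at 5.16 to 7.86 FPKM in the other 7. Levels are given in FPKM from whole reads, so that 0 means no read. Fold changes on the log2 scale are those of the deposited values, which hold an added count of 2 and understate the change of low genes. A change was called at a Benjamini-Hochberg adjusted p under 0.05 from limma's treat test against 1.5-fold, over 14017 tested genes. The methods of the study count the tumour samples by injected mouse, while the labels do not tie a sample to an animal.

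The 3 myogenic factors were read in the c-MYC/FOXO1AAA tumours and in no other library. Myod1 (chromosome 7, 46376474 to 46379099, plus strand, GRCm38) was at 5.21, 6.85 and 3.67 FPKM in the 3 c-MYC/FOXO1AAA libraries, from 239, 381 and 134 reads. It had 0 reads in all 4 NL and all 3 c-MYC libraries. Its mean of 5.25 FPKM ± 1.59 (SD, n = 3) was at least 59.7-fold higher than in c-MYC and at least 29.2-fold higher than in NL, taking 3 reads in the library where they weigh most as the limit that a count of 0 allows.

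Myog (chromosome 1, 134289989 to 134292548, plus strand), whose product myogenin marks differentiating myoblasts, was the highest of the 3. It stood at 24.9, 35.2 and 17.4 FPKM in c-MYC/FOXO1AAA, from 916, 1572 and 509 reads, and had 0 reads in the other 7 libraries. The mean of 25.8 FPKM ± 8.96 (SD, n = 3) was at least 236-fold higher than in c-MYC and at least 115-fold higher than in NL. By mean level in c-MYC/FOXO1AAA, Myog ranked 3115 among the 16697 gene entries and Myod1 ranked 8370.

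Myf5 (chromosome 10, 107482908 to 107486134, minus strand), the earliest of these factors in the embryo, was at 5.07, 3.6 and 5.7 FPKM in c-MYC/FOXO1AAA and had 0 reads in NL and c-MYC. Its mean of 4.79 FPKM ± 1.08 (SD, n = 3) was at least 61-fold higher than in c-MYC. Myf6, the remaining gene of this family and a neighbour of Myf5, was likewise unread in the other 7 libraries and stood at 3.05, 3.1 and 4.88 FPKM. With 0 reads in the other 7 libraries, every c-MYC/FOXO1AAA library of these 4 genes necessarily lay above them. This separation carries no weight of its own.

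**Figure D1:**
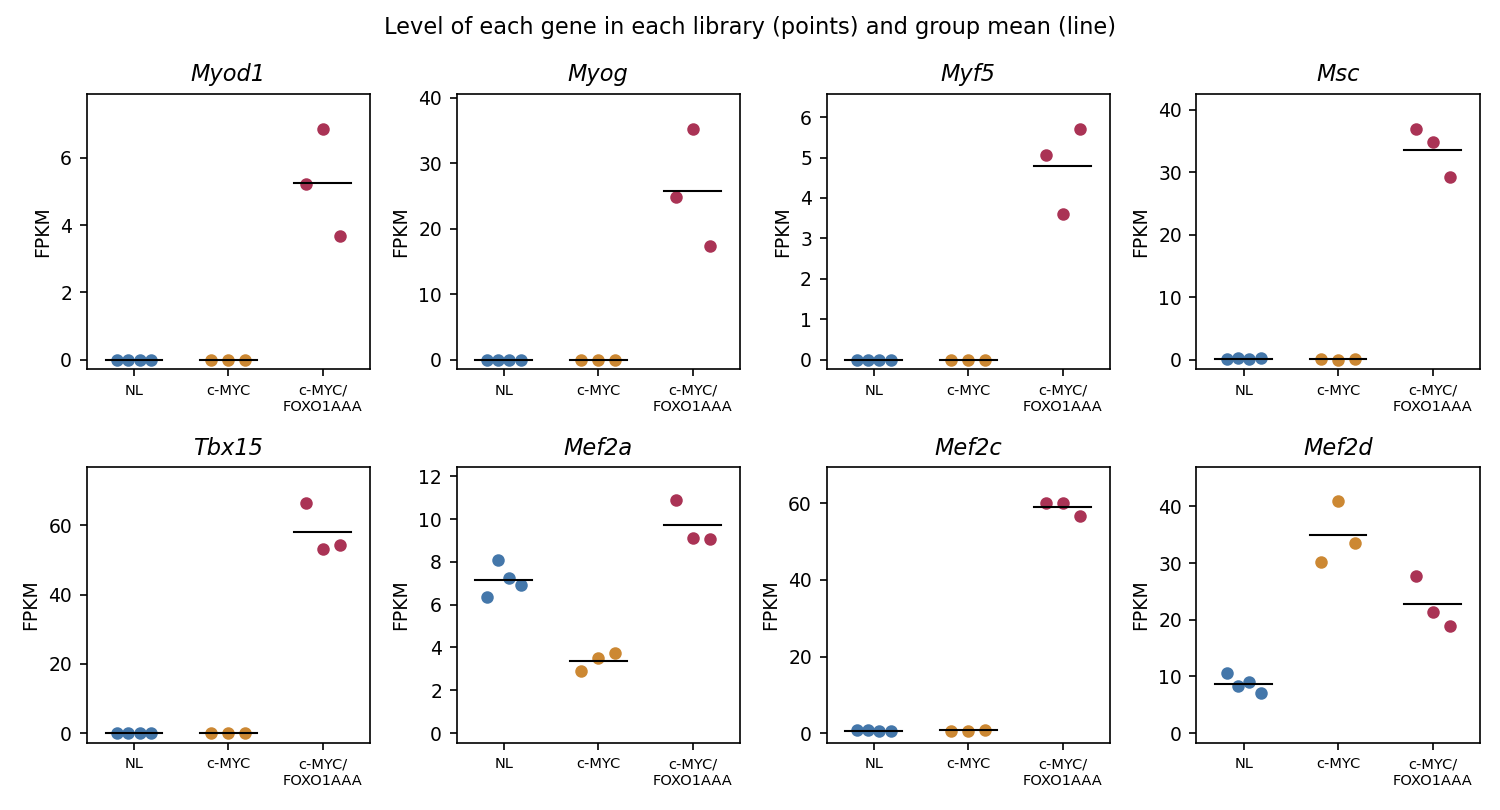
Level of each of the 8 genes in FPKM (linear axes, a separate scale for each gene) in every NL, c-MYC and c-MYC/FOXO1AAA library, with points for libraries and a line for the group mean. Myod1, Myog, Myf5 and Tbx15 lie at 0 in the 7 NL and c-MYC libraries, whereas Mef2a and Mef2d are read in all 10.

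Within c-MYC/FOXO1AAA, Myod1 and Myog varied together across the libraries, and Myf5 and Myf6 did not follow them. Myod1 and Myog were both highest in library 2 and lowest in library 3. Relative to its own mean over the 3 libraries, Myod1 was at 99.4%, 131% and 70% and Myog at 96.4%, 136% and 67.3%. The ratio of Myog to Myod1 in FPKM was therefore 4.77, 5.14 and 4.73. Myf5 had the opposite order, with 106%, 75.2% and 119% of its mean, and its ratio to Myod1 was 0.972, 0.525 and 1.55. Myf6 was also highest in library 3, at 133% of its mean. These are 3 libraries and the orders are a description, with no test.

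**Figure D2:**
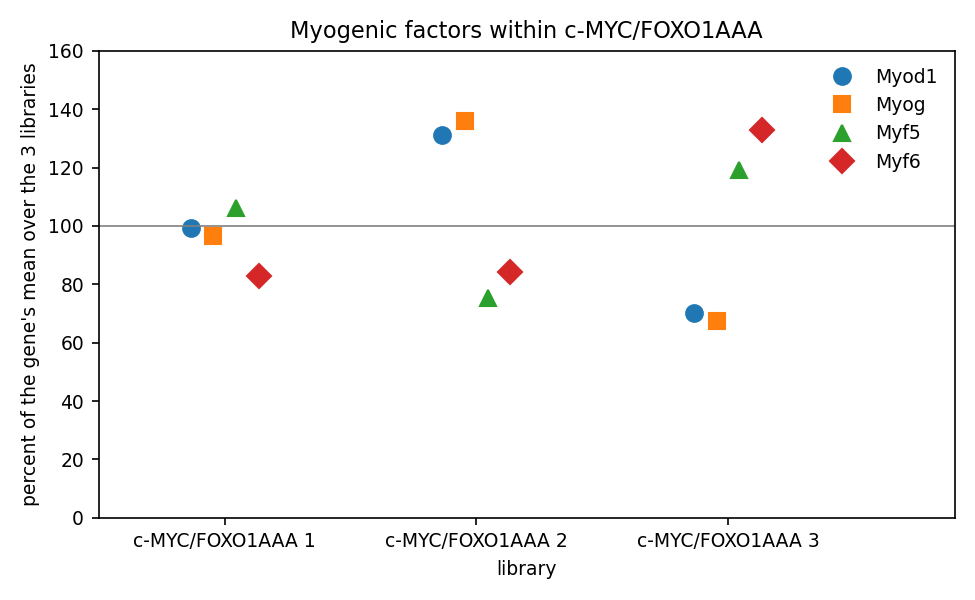
Myod1, Myog, Myf5 and Myf6 in the 3 c-MYC/FOXO1AAA libraries, each as a percentage of its own mean over these libraries (linear axis from 0, grey line at 100). Myod1 and Myog peak in library 2, at 131% and 136%, where Myf5 has its lowest point, at 75.2%.

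Msc (chromosome 1, 14753346 to 14755992, minus strand), whose product opposes the myogenic factors on E-boxes, had a higher mean than any of them, although its range overlapped that of Myog. It was at 36.9, 34.8 and 29.2 FPKM in c-MYC/FOXO1AAA. NL held 0.156, 0.183, 0.118 and 0.192 FPKM, from 2 or 3 reads each, and c-MYC held 0.0313, 0 and 0.156 FPKM, from 1, 0 and 5 reads. The mean of 33.6 FPKM ± 4.01 (SD, n = 3) was 538-fold that in c-MYC. This ratio rests on 6 reads in c-MYC, whose exact Poisson 95% interval, for counting error only, puts it between 247 and 1470. NL and c-MYC overlap, and both lie far below c-MYC/FOXO1AAA. The log2 difference of c-MYC from NL was -0.99, and -1.47 without c-MYC library 3, which held 5 of the 6 reads and without which this difference passed the threshold.

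Tbx15 (chromosome 3, 99240381 to 99354259, plus strand) was at 66.5, 53 and 54.3 FPKM in c-MYC/FOXO1AAA, from 5842, 5649 and 3796 reads. Not a single read was assigned to it in the other 7 libraries. The mean of 57.9 FPKM ± 7.44 (SD, n = 3) was at least 1260-fold higher than in c-MYC and at least 618-fold higher than in NL. It ranked 1533 of 16697 gene entries in c-MYC/FOXO1AAA. Across the table, 203 gene entries (1.22%) had 0 reads in all 7 NL and c-MYC libraries, and 80 of these reached 1 FPKM on the deposited scale in all 3 c-MYC/FOXO1AAA libraries. Myod1, Myog, Myf5 and Tbx15 are 4 of them.

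Of 15 other genes in the list of the T-box family, 6 were analysed and 4 were tested, and none was called between the tumour groups. Mga, a partner of MAX that carries a T-box, was the highest of the 6 in c-MYC/FOXO1AAA, at 4.45 FPKM ± 0.49 (SD, n = 3) against 4.24 FPKM ± 0.458 (SD, n = 3) in c-MYC. In these tumours Tbx2 averaged 0.476 FPKM ± 0.223 (SD, n = 3), Tbx3 averaged 0.154 FPKM ± 0.14 and Tbx6 averaged 0.11 FPKM ± 0.124. Tbx3, a factor of the hepatocyte lineage, was at 6.43 FPKM in NL and 0.0407 FPKM in c-MYC. Tbx1, a factor of branchial muscle that was kept in the list of upstream myogenic factors, was at 18.8, 34.6 and 27.9 FPKM in c-MYC/FOXO1AAA and at 0 in all 3 c-MYC libraries, and was called higher.

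Mef2a, Mef2c and Mef2d were read in every library, and which of them led differed by group. Mef2c (chromosome 13, 83504034 to 83667080, plus strand), the member most tied to the onset of muscle differentiation, was at 60, 60.2 and 56.7 FPKM in c-MYC/FOXO1AAA. It was at 0.429 to 0.741 FPKM in NL and at 0.647, 0.668 and 0.913 FPKM in c-MYC. The mean of 59 FPKM ± 1.99 (SD, n = 3) was 79.4-fold that in c-MYC and 96.5-fold that in NL. Its spread between the 3 libraries, 3.38% of the mean, was smaller than that of any other of the 8 genes.

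Mef2a (chromosome 7, 67231163 to 67372858, minus strand) was at 10.9, 9.13 and 9.07 FPKM in c-MYC/FOXO1AAA. It was at 2.9, 3.51 and 3.73 FPKM in c-MYC and at 6.37, 8.07, 7.23 and 6.91 FPKM in NL. The groups do not overlap, with c-MYC lowest and c-MYC/FOXO1AAA highest, and the log2 difference was 1.52 ± 0.15 (SE) from c-MYC and 0.44 ± 0.14 (SE) from NL. After rescaling all libraries to the same FPKM total, which moved the median of all tested genes from 0.03 to 0.2 between the tumours, from 0.21 to 1.31 in c-MYC/FOXO1AAA versus NL and from 0.08 to 1.01 in c-MYC versus NL, these log2 differences became 1.69 and 1.54, the latter past the threshold. The same rescaling took the difference of c-MYC from NL from -1.08 to -0.15, no longer past it.

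Mef2d (chromosome 3, 88142372 to 88172086, plus strand), the broadly expressed member, had the reverse order among the tumours. It was at 30.2, 41 and 33.6 FPKM in c-MYC, at 27.8, 21.4 and 18.9 FPKM in c-MYC/FOXO1AAA and at 10.6, 8.27, 9.01 and 7.09 FPKM in NL. The lowest c-MYC library lay above the highest c-MYC/FOXO1AAA library. The log2 difference was -0.63 ± 0.18 (SE) between the tumours, and 2 ± 0.17 (SE) for c-MYC against NL.

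The sum over the 3 genes was 16.5 FPKM ± 1.36 (SD, n = 4) in NL. It reached 39.1 FPKM ± 5.74 (SD, n = 3) with c-MYC alone, and with FOXO1AAA added it reached 91.3 FPKM ± 7.03 (SD, n = 3). Mef2d made up 52.8% ± 5.36 (SD, n = 4) of the sum in NL and 89.4% ± 1.44 (SD, n = 3) in c-MYC, against 24.7% ± 3.09 (SD, n = 3) in c-MYC/FOXO1AAA. Mef2c made up 3.7% ± 0.786, 1.93% ± 0.454 and 64.7% ± 3.4 in the same order. Shares within a group depend on the transcript length taken for each gene. For Mef2c this was 2862 bases, where its annotated transcripts run from 332 to 6277 bases. Mef2b, the remaining gene of the family, was at 0.964 FPKM in c-MYC and 0.297 FPKM in c-MYC/FOXO1AAA on average and was not tested.

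**Figure D3:**
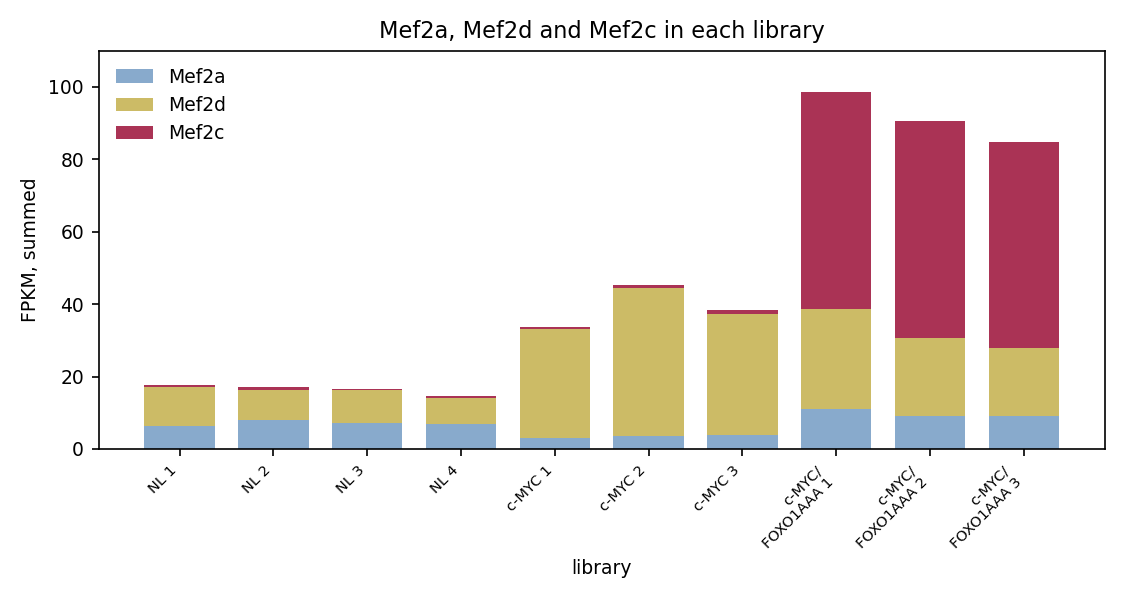
FPKM of Mef2a, Mef2d and Mef2c stacked for each of the 10 libraries (linear axis from 0, bars in group order). Mef2d makes up most of each c-MYC bar, and Mef2c appears as 60.8% to 67% of the bar in the c-MYC/FOXO1AAA libraries.

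Ordered by mean level in c-MYC/FOXO1AAA, the genes stood as Mef2c, Tbx15, Msc, Myog, Mef2d, Mef2a, Myod1 and Myf5. Like the shares above, this order depends on the transcript length taken for each gene. The libraries of Mef2c and Tbx15 overlap, as do those of Msc and Myog, of Myog and Mef2d, and of Myod1 and Myf5. The remaining neighbours do not overlap. In NL, Mef2d and Mef2a overlap, Mef2c and Msc follow, and the other 4 genes were unread. In c-MYC, Mef2d lay above Mef2a in every library and both above Mef2c.

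Against c-MYC, 7 of the 8 genes passed the threshold upwards and none downwards, Mef2d being the exception, where 15.9% of all tested genes were called higher and 12.7% lower. Against NL, 7 were higher and none lower, Mef2a being the exception, with 31.2% of all tested genes higher and 26.6% lower. In c-MYC versus NL, Mef2d was higher and Mef2a lower, with 24.5% and 23.6% of all tested genes called. The counts against c-MYC and against NL follow from the way the genes were selected and carry no weight of their own. Of the 8 genes, 6 passed the filter of 1 FPKM in at least 3 libraries only through c-MYC/FOXO1AAA, whereas Mef2a and Mef2d passed it in every group.

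The patterns most like those of single genes were found by the root mean square difference of log2 values over the 10 libraries, each gene centred on its mean, among 14017 tested genes. Nearest to Tbx15 were Olig2 (0.226), a bHLH factor of motor neurons and oligodendrocytes, Mybpc1 (0.543), a myosin-binding protein of slow muscle, and Slc38a5 (0.661), an amino acid transporter. Nearest to Myog were Osr2 (0.15), a zinc finger factor of limb and palate mesenchyme, Myh3 (0.226), the embryonic myosin heavy chain, and Actc1 (0.254), the actin of heart and fetal skeletal muscle. Nearest to Mef2c were Zic2 (0.247), Rbm24 (0.254) and Zic1 (0.257). Mef2d was nearest to Naa25 (0.14), Pop1 (0.15) and Iars (0.176), which share its peak in c-MYC. Olig2 stood at 65.5 FPKM and Osr2 at 33.8 FPKM on average in c-MYC/FOXO1AAA, with 0 in NL and c-MYC. The deposited values hold the added count of 2. For genes unread or nearly unread in NL and c-MYC, the distance therefore depends largely on their total reads in c-MYC/FOXO1AAA. These totals were 2997 for Myog, 3530 for Myh3 and 3393 for Actc1. Nearness is thus a description and no sign of a shared programme.

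Of the analysed genes that flank the 6 genes with the strongest pattern, 12 were not called, 4 were not tested and 2 were called between the tumour groups. Wars2, a mitochondrial tRNA ligase 1.2 kb from Tbx15, averaged 3.34 FPKM ± 0.336 across c-MYC and 4.55 FPKM ± 0.216 across c-MYC/FOXO1AAA (SD, n = 3 each) and was not called. On the other side of Tbx15, Spag17 (531 kb away) averaged 0.68 FPKM in c-MYC/FOXO1AAA and 0 in c-MYC, and was not tested. Ppfia4, 4.24 kb from Myog, averaged 1.05 FPKM in c-MYC/FOXO1AAA and 0.23 FPKM in c-MYC, and Mybph, 88.8 kb away on the other side, 1.28 FPKM and 0.00782 FPKM. Neither was tested. Sergef, the only analysed neighbour of Myod1, averaged 6.89 and 6.94 FPKM in the same groups. The neighbours of Mef2c lie 555 kb or more away, and none of the 4 was called. Of 24 neighbours looked up, 18 were analysed. Myf6 alone was called higher, and Hao2, near Tbx15, was called lower (0.205 against 6.13 FPKM). Over all tested genes, 15.9% were called higher and 12.7% lower. Not called were Sergef, Adora1, Tmem183a, Acss3, Lin7a, Xkr9, Wars2, Wdr3, Mblac2, Cetn3, Tmem161b and Ccnh, and Mybph, Ppfia4, Eya1 and Spag17 were not tested. Each of these 4 untested genes averaged higher with FOXO1AAA, Eya1 from only 46 reads in all c-MYC/FOXO1AAA libraries together.

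Around these genes, 8 lists of muscle genes were read, with 114 of 128 listed genes analysed and 90 tested. Between c-MYC/FOXO1AAA and c-MYC, 63 (70%) were called higher in the former and 7 (7.78%) lower, where 15.9% and 12.7% of all tested genes were. Without c-MYC/FOXO1AAA library 1, the lower count was 4. Their median log2 difference was 3.6, against 0.03 for all tested genes. In c-MYC/FOXO1AAA versus NL, 68 were called higher and 9 lower, or 75.6% and 10% of the list beside 31.2% and 26.6% of all tested genes. In c-MYC versus NL, 20 were called higher and 14 lower, or 22.2% and 15.6% beside 24.5% and 23.6% of all tested genes, and the median log2 difference was 0.18. With all libraries set to an equal FPKM total, these last counts were 38 and 10. Of the 63 genes called higher between the tumours, 26, 26 and 11 were highest in c-MYC/FOXO1AAA libraries 1, 2 and 3, as were 1013, 833 and 383 of all 2229 genes called higher. The lists were drawn up with results of these data known, and genes enter the test more readily if they are high in 1 group, so these counts are descriptions.

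**Figure D4:**
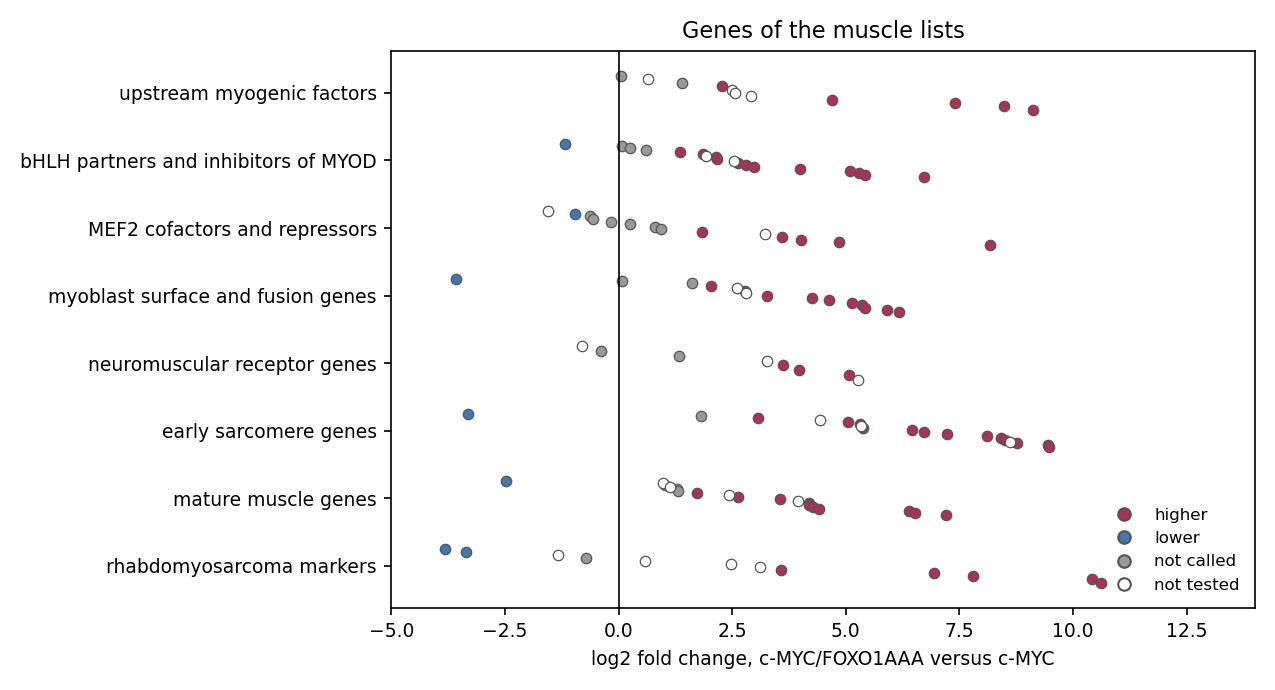
Log2 fold change (deposited scale) between c-MYC/FOXO1AAA and c-MYC for every analysed gene of the 8 muscle lists, 1 point a gene, with filled colours for genes called higher, lower or not called and open points for genes under the filter. Early sarcomere genes lie mostly at the right, with 13 of 15 tested genes called higher, whereas the rhabdomyosarcoma markers spread to both sides.

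Of the upstream myogenic factors, which act on the myogenic genes in the embryo, 5 of 7 tested genes were called higher than in c-MYC and none lower, with a median log2 difference of 4.7. Eya2, a transcriptional cofactor of the muscle lineage, stood at 24.3 FPKM ± 4.72 (SD, n = 3) against 0.0218 FPKM in c-MYC, and Six4 at 1.97 FPKM against 0.391 FPKM. Eya1 reached 0.315 FPKM ± 0.242 (SD, n = 3) and was not tested. Pax3, Pax7, Lbx1 and Dmrt2 were not analysed here.

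Among the bHLH partners and inhibitors, 12 of 16 tested genes were called higher and 1 lower, with a median log2 difference of 2.39. Of the E proteins that pair with MYOD, Tcf4 was at 25.2 FPKM ± 4.23 (SD, n = 3) against 1.59 FPKM in c-MYC and was called higher, whereas Tcf3 (58 against 48 FPKM) and Tcf12 (20 against 13.2 FPKM) were not called. Most tested inhibitors were called higher, and Id2 alone was called lower. Id3, which sequesters E proteins, was at 114 FPKM ± 23 (SD, n = 3) against 2.71 FPKM, and Twist1 at 10.4 FPKM against 0.0334 FPKM. Id2 was at 21 FPKM against 48.4 FPKM. Id3 in c-MYC/FOXO1AAA was not called against NL, where it was at 64.5 to 77.6 FPKM.

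Of the cofactors and repressors of MEF2, 5 of 12 tested genes were called higher and 1 lower, with a median log2 difference of 0.86. Vgll3, a TEAD cofactor of muscle, was at 81.3, 42.6 and 59.7 FPKM in c-MYC/FOXO1AAA and at most 0.177 FPKM in c-MYC. Of the class IIa histone deacetylases that silence MEF2, Hdac7 (15.2 against 0.903 FPKM) and Hdac9 (2.24 against 0.0485 FPKM) were called higher, and Hdac4 and Hdac5 were not called. Mapk14, the p38 kinase that activates MEF2, was lower at 17.9 FPKM against 34.7 FPKM.

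Genes of the myoblast surface and of fusion followed, with 10 of 13 tested genes called higher and 1 lower (median log2 difference 4.25). Des, the intermediate filament desmin, was at 57.4, 61.5 and 69.2 FPKM in c-MYC/FOXO1AAA and at 0.473 to 1.1 FPKM in c-MYC. Boc, a surface receptor of myoblasts, was at 6.55 FPKM ± 1.74 (SD, n = 3) against 0.0808 FPKM, and Cdh15, the muscle cadherin, at 3.24 FPKM against 0.0388 FPKM. Itga7 was called higher against c-MYC at 2 FPKM, a level below the 3.49 FPKM of NL, and Ncam1 was not tested. Vcam1 went the other way, with 5.1 FPKM ± 3.24 (SD, n = 3) against 55.4 FPKM ± 15.4 (SD, n = 3) in c-MYC.

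The neuromuscular receptor genes had 5 tested members, of which 3 were called higher and none lower (median log2 difference 3.62). Chrng, the fetal subunit of the acetylcholine receptor, was at 2.02 FPKM ± 0.556 (SD, n = 3) against 0.0234 FPKM, and Rapsn, which clusters the receptor, at 4.34 FPKM against 0.271 FPKM. Chrne, the adult subunit that replaces Chrng, had no read in the 3 c-MYC/FOXO1AAA libraries. Dok7, an activator of the muscle receptor kinase, was at 1.87 FPKM against 0.00724 FPKM, and Chrnb1 was not called. Chrna1 (1.02 FPKM) and Chrnd (0.356 FPKM) were unread in the other groups and were not tested.

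Early sarcomere genes gave the largest share of calls among the 8 lists, with 13 of 15 tested genes higher and 1 lower and a median log2 difference of 6.72. With the 2 genes unread in c-MYC set at their lower bound, the median was 6.46. Acta1, skeletal actin, was at 120, 121 and 89.3 FPKM in c-MYC/FOXO1AAA and at most 0.301 FPKM in c-MYC. Actc1 was at 30 FPKM ± 8.06 (SD, n = 3) with no read in c-MYC, and Myh3 at 7.75 FPKM ± 1.65 (SD, n = 3) against 0.00303 FPKM. Mybpc1 was at 59 FPKM ± 14.1 (SD, n = 3) and Myl4, the embryonic light chain, at 87.3 FPKM ± 7.36 (SD, n = 3). Tnnc1, the troponin C of slow and heart muscle, was the gene that was lower, at 5.27 FPKM ± 1.06 (SD, n = 3) against 54.8 FPKM ± 14.9 (SD, n = 3) in c-MYC.

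Genes of mature muscle reached lower levels. Of 14 tested genes, 10 were called higher and 1 lower, and the median log2 difference was 3.87, or 3.74 with the gene unread in c-MYC at its lower bound. The adult fast myosins Myh1 and Myh4 averaged 0.173 and 0.0724 FPKM in c-MYC/FOXO1AAA and were not tested. Ckm, muscle creatine kinase, was at 4.71, 8.68 and 3.76 FPKM against 3.5, 0.639 and 4.49 FPKM in c-MYC and was not called. Trim63 (11.6 FPKM), a ubiquitin ligase of muscle wasting known as a FOXO target, Tcap (15.8 FPKM) and Atp2a1 (6.02 FPKM) were called higher, from at most 0.0574 FPKM on average in c-MYC. Pgam2, a muscle form of a glycolytic enzyme, was lower, at 7.27 FPKM against 51.1 FPKM ± 41 (SD, n = 3).

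The rhabdomyosarcoma markers moved in both directions. Of 8 tested genes, 5 were called higher and 2 lower, beside 15.9% and 12.7% of all tested genes. The median log2 difference was 5.26, or 5.03 with the 2 genes unread in c-MYC at their lower bound. Over all 12 analysed genes it was 2.8. Against NL, 5 were called higher and 3 lower, or 62.5% and 37.5%, beside 31.2% and 26.6% of all tested genes. Olig2, a marker of fusion-positive rhabdomyosarcoma, was at 70.4, 78 and 48.3 FPKM, with no read in the other 7 libraries. Fbn2 was at 41.2 FPKM ± 7.22 (SD, n = 3) and Hmga2 at 7.99 FPKM ± 0.947 (SD, n = 3), both at most 0.0191 FPKM on average in c-MYC. Fgfr4, a receptor gene high in fusion-positive tumours and also in hepatocytes, was lower, at 1.68 FPKM ± 0.424 (SD, n = 3) against 17.4 FPKM ± 2.51 (SD, n = 3) in c-MYC, while NL stood at 30.3 FPKM. Pipox, which hepatocytes also express, was lower at 5.25 FPKM against 60.8 FPKM. Egfr was called higher than in c-MYC, at 2.92 against 0.269 FPKM, but lower than in NL, where it was at 69.1 FPKM. Igf2 was high in both tumours, at 280 to 293 FPKM in c-MYC/FOXO1AAA and 395 to 639 FPKM in c-MYC, and was not called between them. Cdh3 (0.265 FPKM), Nos1 (0.36 FPKM), Dcx (0.202 FPKM) and Mycn (0.0978 FPKM) were low in c-MYC/FOXO1AAA and were not tested. Mycn was at 0.0498 FPKM in c-MYC and 0.953 FPKM in NL. Tfap2b and Alk, also on this list, were not analysed here.

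Levels of markers of other cell types moved with these genes, and in bulk tissue fewer cells of a type and less RNA per cell cannot be told apart. The summed level of 8 hepatocyte markers was 80200 to 90200 FPKM in NL, 4890 to 7860 FPKM in c-MYC and 881 to 1590 FPKM in c-MYC/FOXO1AAA, with no marker at 0 in a group. Against c-MYC, 5 of the 8 were called lower in c-MYC/FOXO1AAA. Tat and Cyp2e1 were called higher, at 4.42 and 63.5 FPKM against 0.897 and 13.3 FPKM. Hnf4a, a master factor of hepatocytes, was at 7.15 FPKM ± 3.47 (SD, n = 3) against 94.3 FPKM ± 15.5 (SD, n = 3) in c-MYC, Ttr at 102 against 983 FPKM and Afp at 44.9 against 2100 FPKM. Alb, at 641 against 836 FPKM, was not called.

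The sum of 9 stellate cell and fibroblast markers was 295 to 390 FPKM in c-MYC/FOXO1AAA, 10.4 to 37.1 FPKM in c-MYC and 110 to 136 FPKM in NL, with 5 of 9 called higher against c-MYC, among them Dcn (236 against 4.52 FPKM), Reln (5.98 against 0.0913 FPKM) and Pdgfra (4.51 against 0.168 FPKM). Against NL, 3 of the 9 were called higher and 3 lower, with a median log2 difference of 0.22. The stellate cell genes Lrat (0.255 FPKM) and Hand2 (0.341 FPKM) stayed low and were not called. The sum of 5 smooth muscle and pericyte markers was 57.1 to 107 FPKM against 5.03 to 15.1 FPKM in c-MYC, with Acta2 and Pdgfrb, 2 of 3 tested genes, higher. The third, the pericyte gene Rgs5, averaged 1.49 FPKM ± 0.267 against 4.04 FPKM ± 2.32 in c-MYC (SD, n = 3 each) and was not called, and it was called lower against NL (9.49 FPKM). Acta2 held most of it (64.5 FPKM ± 25, SD, n = 3), while the defining smooth muscle genes Myh11 (0.135 FPKM) and Lmod1 (0.104 FPKM) were near 0. Of 6 cardiac markers, 2 were analysed, Tnni3 (0.598 FPKM) and Ryr2 (0.117 FPKM), and neither was tested.

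Of the remaining lists, both tested skeletal mesenchyme markers were higher, namely Msx1 (16.7 against 0.0837 FPKM) and Prrx1 (6.19 against 0.242 FPKM), and the sum of 6 was 17.5 to 31.1 FPKM against 0.421 to 0.561 FPKM. Prrx2 and Runx2 were not tested. Neural and oligodendrocyte markers had a sum of 160 to 205 FPKM against 18.4 to 23.5 FPKM, of which Olig1 gave 165 FPKM ± 17.8 (SD, n = 3), while Mbp was not called. Of the brown adipocyte markers, Zic1 (3.71 FPKM) and Cidea (1.74 FPKM) were higher while Pparg was lower, at 0.561 against 2.08 FPKM. Prdm16 was not tested. Of 7 endothelial markers, Cdh5 and Erg were called higher, and the other 5 (Pecam1, Kdr, Tek, Stab2 and Emcn) were not called. The median log2 difference of the 7 was -0.59. Against NL, 2 were called higher and 2 lower, the latter being Kdr and Stab2. Of 3 analysed B cell markers, which bear on Mef2c because lymphocytes express it, Cd79a was higher at 9.44 FPKM against 0.136 FPKM and Cd79b was not called. The part of these cell types in the levels of the 8 genes was not tested.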

How the data were processed

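Values were log2 FPKM as deposited. The authors counted reads by gene and analysed them in R with edgeR, and the processing notes name FastQC 0.11.7 and GRCm38. The aligner and counter are not given in the sources used here. The authors' scale holds a prior count of 2 per gene, scaled to each library. Of 17069 entries, 372 without a symbol or values were left out. Whole reads were recovered from the deposited log2 values for 16696 of 16697 genes (within 1e-05 reads), and 97.7% of 16625 matched genes had the length of a GENCODE M21 transcript. Depth was 13.12 to 20.55 M reads (M, mega) per library. Intervals and floors cover counting error only.

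The 8 genes, the lists and the tests were chosen with earlier results of these data known. Groups came from sample titles. Genes at 1 FPKM or more in 3 libraries were fitted over all 10 libraries with limma 3.58.1 (R 4.3.3; treat at 1.5-fold, trend and robust, 2-sided, Benjamini-Hochberg over 14017 genes). By rule the text names the 8 genes, the first 3 genes of each list, up to 3 called genes with the largest change each way, the 3 genes most like Tbx15, Myog, Mef2c and Mef2d, and 2 neighbours on each side. Some genes that this rule names are not reported here. Foxo1, Chrne, Mga, Rgs5, Egfr, Mycn, Nos1, Dcx, Tek, Stab2 and Emcn were added after their values were seen. On simulated data, 172 of 187 changed genes were recovered in c-MYC/FOXO1AAA versus c-MYC among 13469 tested. Alternatives were other pseudocounts, filters, scalings, thresholds and estimation, fits over 2 groups, the replicate block, libraries left out and limma voom on whole reads.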

Additional observations from a re-analysis of the deposited data

How the results depend on the processing

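Of 126 counts of called muscle-list genes under the alternatives, 118 stayed within 1.5 times the reported count. With a mean FPKM of at least 5, which left 43 of the 90 genes tested, 24 were called higher in c-MYC/FOXO1AAA versus c-MYC, 28 in c-MYC/FOXO1AAA versus NL and 11 in c-MYC versus NL, with 9 lower in the last. In c-MYC versus NL, a pseudocount of 1 gave 11 higher, rescaling to the same FPKM total 38 higher, and no fold-change threshold 24 lower, and the cause was not tested. Over all genes, this rescaling gave 8129 higher and 2099 lower calls in c-MYC/FOXO1AAA versus NL in place of 4371 and 3728, and 7061 and 1895 in c-MYC versus NL in place of 3435 and 3305. Leaving out single libraries gave 62 to 64 higher and 4 to 7 lower calls between the tumours, 68 to 69 and 8 to 9 for c-MYC/FOXO1AAA against NL, and 17 to 21 and 12 to 15 in c-MYC versus NL.

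For the 8 genes, no called log2 difference changed sign, 446 of 504 values stayed within the spread between replicates, 58 moved further, and 7 calls changed. Of the 446, 6 were no longer tested (Myod1 and Myf5 at a mean FPKM of at least 5). A pseudocount of 1 lowered Myod1 from 6.34 to 2.54 and Tbx15 from 10.76 to 5.83 between the tumours. Without a fold-change threshold, Mef2d between the tumours (-0.63), Mef2a in c-MYC/FOXO1AAA versus NL (0.44) and Msc in c-MYC versus NL (-0.99) passed. Rescaling to the same FPKM total called Mef2c higher in c-MYC versus NL (1.21), beside the 2 changes of Mef2a and the change of Msc without c-MYC library 3 given with the results.

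Replicate numbers were shared between groups, but same-numbered samples did not deviate together (correlations from -0.04 to 0.027). With the replicate block, 63 muscle-list genes were called higher and 7 lower between the tumours, 69 and 9 for c-MYC/FOXO1AAA against NL, and 19 and 12 in c-MYC versus NL. Depth limits genes at 0 reads to the bounds given, and genes under 1 FPKM were not tested.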
